A study of Mus musculus with 6 samples.

Results

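The expression of 42 genes of the sarcomere and of excitation-contraction coupling was compared between *Mir483*-array embryos and their wild-type (WT) littermates. The genes were a list of symbols that covered the muscle filaments, the Z-disc, calcium handling, cardiac conduction and energy supply, and left out chamber myosins and natriuretic peptides. Its rule used no measured value, but the list was chosen with earlier results of these data known. All 42 symbols matched 1 identifier each among the 55401 gene identifiers of the count table, and 40 of the 42 passed a filter on low counts. RNA-seq counts came from whole mouse embryos at E10.5 (E for embryonic day), with 3 WT and 3 5C libraries, and each library was a pool of 2 embryos. 5C embryos carried a tandem array of *Mir483*, which encodes the miR-483 arms 3p and 5p and which had been placed at the endogenous *Igf2* locus by recombinase-mediated cassette exchange in *Mir483*-knockout embryonic stem cells, and the array was passed on by chimeric males. WT embryos came from the same litters with an unmodified locus, and the mice were on a C57BL/6J background. The array sits at *Igf2* in the germ line rather than under a heart or muscle promoter, so any heart or muscle value below was measured in embryos that carried it in every tissue.

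Striated muscle contracts when myosin heads of the thick filament pull on actin of the thin filament, and this pull is gated by the troponin complex and tropomyosin. The Z-disc anchors thin filaments, titin spans from Z-disc to M-band, and a rise in cytoplasmic calcium, let in through surface channels and released from the sarcoplasmic reticulum, starts each beat. In the mouse at E10.5 the beating heart is a main site of many of these genes. The first skeletal myocytes form in the somites, where several slow or fetal forms are shared with the heart. Some of the genes, among them *Atp2a2*, *Gja1* and *Gja5*, are also used outside muscle.

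The edited gene was checked first. *Mir483* (chr7:142654924-142654996, minus strand, GRCm38) measured 0.577, 0.429 and 0.319 CPM (counts per 1000000 of the normalized library total) across the WT libraries, against 5.15, 4.35 and 2.56 CPM across the 5C libraries. The lowest 5C value exceeded the highest WT value, a direction that matched the labels, and the counts came from longer transcripts rather than from mature microRNA. The log2 fold change of *Mir483* (5C against WT) was 3.05 ± 0.36 (SE). In edgeR's quasi-likelihood test its p was 1.01e-05, which Benjamini-Hochberg adjustment over all genes tested raised to 0.169. The libraries held 6357343 to 19151368 counts, so that 3 counts, the smallest level taken as detected, corresponded to 0.157 to 0.472 CPM (counting error only). Of the 42 genes, 36 had at least 10 counts and 19 at least 100 counts in every library, and *Mb*, *Ckm* and *Ckmt2* had under 3 counts in at least 1 library. Some libraries stood apart in ways the genotype does not explain. The pools are described as male, but 4 Y-linked genes summed to 4.12 CPM in WT replicate 2 and 0.0854 CPM in 5C replicate 2 against 130.4 to 212 CPM in the other 4 libraries, and *Xist* measured 495 to 914 CPM in all 6. Yolk sac endoderm markers (10 genes) summed to 6601 CPM in WT replicate 1 and 1282 CPM in 5C replicate 3 against 146 to 477 CPM elsewhere. Counts are therefore also given below without both libraries numbered 2, and without WT replicate 1 and 5C replicate 3. In whole-embryo RNA, fewer muscle cells and less RNA per muscle cell cannot be told apart.

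The mature sequences of the 2 microRNAs of the array are shown because matches to their seeds were looked for in the 3′ untranslated regions (UTRs) of the 42 genes. They were taken from the RefSeq annotation of GRCm38.p6, and capitals mark the seed, bases 2 to 8.
miR-483-3p: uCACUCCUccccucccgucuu
miR-483-5p: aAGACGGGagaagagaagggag

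The letters AGGAGTG, which pair with the miR-483-3p seed, occurred in the UTR of the longest coding transcript in 9 of the 42 genes, beside 12.4% of 13923 tested genes with an annotated UTR. The letters CCCGTCT, which pair with the miR-483-5p seed, occurred in 1 of the 42, beside 3.44% of the same genes. The UTRs of the 42 genes were short, with a median of 595 bases against 1196 bases over the tested genes. The 9 genes were *Tnnc1*, *Tpm1*, *Myl3*, *Tcap*, *Casq2*, *Slc8a1*, *Cacna1c*, *Hcn4* and *Ankrd1*, with 2 matches in each of *Cacna1c* and *Hcn4*, and the gene with the miR-483-5p match was *Myom2*. The sites of 5 of them are shown in GRCm38, written along the transcript with the seed match in capitals, to set beside the expression of the same genes. They lie at chr9:58862921-58862950, plus strand (*Hcn4*), chr14:31211585-31211614, plus strand (*Tnnc1*), chr9:110769638-110769667, plus strand (*Myl3*), chr19:36112106-36112135, minus strand (*Ankrd1*) and chr8:15132952-15132981, plus strand (*Myom2*). The *Hcn4* site was the only match of the 12 in the 42 genes that was followed by an A, which extends it to 8 bases.
Hcn4: ggtctgggataAGGAGTGaggggtctcttg
Tnnc1: gaccccgtggtAGGAGTGcagctgggctct
Myl3: gagcttcgggaAGGAGTGgttcggactcct
Ankrd1: aaggcaacgtcAGGAGTGccgcatgtaggg
Myom2: attaagggaatCCCGTCTgccctggggctg

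A match is a description of these letters and not evidence that the site is used. None of the 7 genes with an unadjusted p under 0.05, which are named below, held a match to either seed in the UTR searched. Over the tested genes with an annotated UTR, 12.4% held a miR-483-3p match and 3.44% a miR-483-5p match. A relation between matches and expression was not tested. The 9 genes with a miR-483-3p match had log2 fold changes (5C against WT) of -0.28 (*Tnnc1*), -0.015 (*Tpm1*), -0.31 (*Myl3*), -0.36 (*Tcap*), -0.37 (*Casq2*), -0.090 (*Slc8a1*), -0.13 (*Cacna1c*), -0.049 (*Hcn4*) and 0.20 (*Ankrd1*). All of them lay in the range of the other members.

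The level of each gene was first described per exon length, as RPKM (CPM divided by the exon length in kilobases), the scale on which genes can be compared with each other. *Actc1*, the cardiac alpha actin of the thin filament, was highest at a mean of 114 RPKM over the 6 libraries (range 99.99 to 137 RPKM). *Tpm1*, alpha tropomyosin, followed at 58.7 RPKM (54.2 to 64.3 RPKM), and *Atp2a2*, the calcium pump of the sarcoplasmic reticulum, which many non-muscle cells also use, at 48.9 RPKM (45.4 to 53.5 RPKM). The library ranges of these 3 genes did not overlap each other or the next gene. *Gja1* (connexin 43) at 25.8 RPKM and *Tnnc1* (troponin C of heart and slow muscle) at 25.4 RPKM came next and overlapped. From *Gja1* down to *Nebl*, at 2.75 RPKM, every neighbour in the order overlapped the next. Further gaps lay only below *Nebl*, below *Ldb3* at 0.929 RPKM and below *Trdn* at 0.319 RPKM. The lowest were *Ckmt2*, *Ckm* and *Myom2* at 0.104, 0.0965 and 0.0934 RPKM. Dividing by the length of the longest transcript instead put *Tpm1* (132 RPKM) above *Actc1* (126 RPKM) and *Gja1* (68.1 RPKM) above *Atp2a2* (52.4 RPKM), so this order and its gaps depend on the length used.

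**Figure D1:**
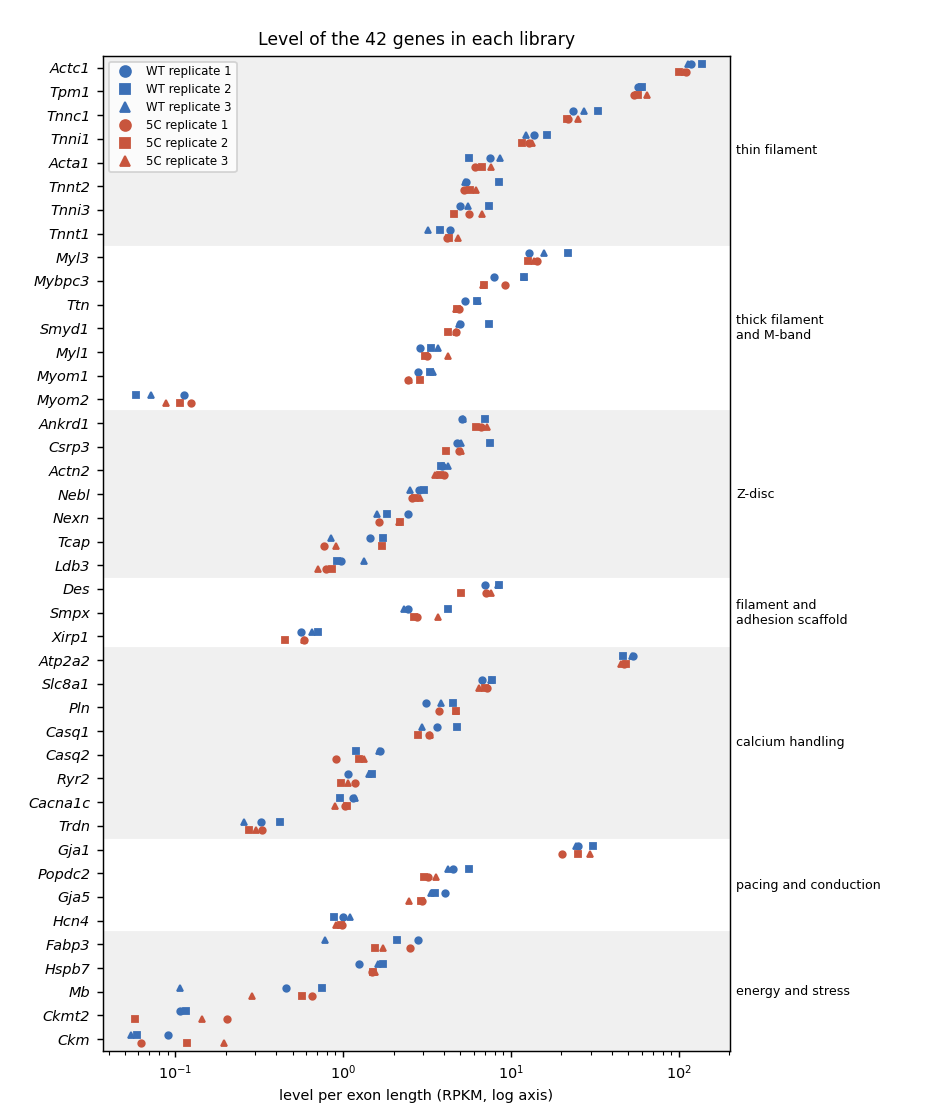
Level of each of the 42 genes per exon length (RPKM, log axis) in the 3 WT libraries (blue) and 3 5C libraries (red), grouped by role; marker shape gives the replicate number. Levels span from Actc1 at 114 RPKM to Myom2 at 0.0934 RPKM (means over 6 libraries), and the genotypes lie close together beside this range; Ckmt2 in WT replicate 3 had 0 counts and is not drawn.

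Across the 40 genes tested, 5C levels were slightly below WT levels in most genes, and no single gene passed the test after adjustment. The log2 fold change was below 0 in 32 of the 40 (80%), beside 50.7% of all 16784 genes tested, and its median was -0.15, beside -0.0024 over all genes. Without WT replicate 2 the number below 0 was 26, with a median of -0.089. It was 24 without both libraries numbered 2. In the other alternatives it ranged from 28 (GC offset and replicate block) to 35 (without 5C replicate 3). The extremes were -0.56 for *Popdc2* and 0.30 for *Myom2*, so none reached a 1.5-fold change. With edgeR's quasi-likelihood test and Benjamini-Hochberg adjustment, 0 of the 40 genes had an adjusted p under 0.05 with a fold change over 1.5, beside 0% of all genes, and no member had an adjusted p below 0.781. The edited gene *Mir483* was not called by this test either (adjusted p 0.169). The absence of calls therefore does not show that the 40 genes were unchanged. At an unadjusted p under 0.05, 7 of the 40 (17.5%) were lower in 5C, beside 3.47% of all genes, and 0 were higher, beside 2.55%. Each 5C library lay below each WT library in 6 of the 40 (15%), beside 5.1% of all genes, and above it in 0, beside 6.26%. The 6 were *Ttn*, *Popdc2*, *Gja5*, *Actc1*, *Ldb3* and *Smyd1*. DESeq2 gave 1 gene, *Ttn*, an adjusted p under 0.05 (19 of all genes), limma-voom gave 0, and edgeR without a count filter gave 2, *Ttn* and *Mybpc3* (416 of all genes), neither of these members over 1.5-fold. The 42 genes are expressed in overlapping cell types and are not independent of each other, and they were chosen with earlier results of these data known. These counts therefore only describe the list.

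The count of 7 differed between settings, and so did the share of all genes called lower. Leaving out 1 library at a time, it was 12 without WT replicate 1 (2.61% of all genes), 4 without 5C replicate 2 (1.68%), 5 without WT replicate 2 (7.03%) and 5 to 7 otherwise (2.88% to 4.40%). It was 5 without both libraries numbered 2 (3.98% of all genes), where the median log2 fold change was -0.042, and 12 (2.69% of all genes, median -0.24) without WT replicate 1 and 5C replicate 3. With an offset for exonic GC content fitted in each library it was 3 (*Gja5*, *Popdc2* and *Ttn*), beside 2.41% of all genes, with a median of -0.15; the tested members had a median exonic GC content of 50.8%, beside 49.0% over all genes tested. *Ttn* had an unadjusted p under 0.05 in all 19 alternative settings, and *Gja5* and *Popdc2* in 18 each. *Myom1* had one in 13 of the 19, *Actc1* in 12, and *Mybpc3* and *Ryr2* in 9 each. For *Gja5* and *Popdc2* the exceptions were the fit without WT replicate 1 and 5C replicate 3 for the first (log2 fold change -0.23) and the fit without both libraries numbered 2 for the other (-0.37).

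**Figure D2:**
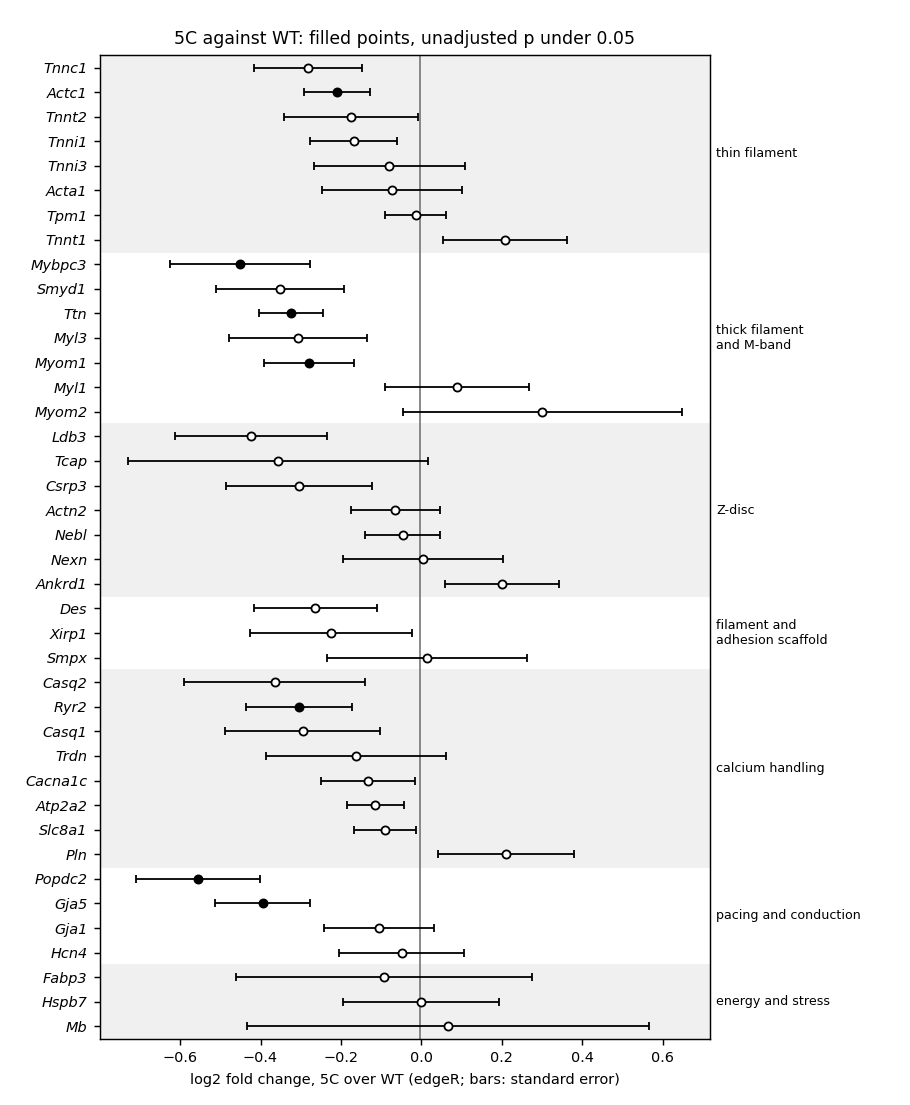
Log2 fold change (5C against WT, edgeR) of each tested gene with its standard error as the bar, grouped by role and ordered within a role; filled points have an unadjusted p under 0.05. Points left of 0 are lower in 5C. Of the 40, 32 lie there, beside 50.7% of all genes tested. The lowest is Popdc2 at -0.56 and the highest Myom2 at 0.30.

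Thick filament and M-band genes had the lowest median of the 7 roles, -0.31, and held 3 of the 7 genes with an unadjusted p under 0.05. *Ttn* (ENSMUSG00000051747, chr2:76703980-76982547, minus strand) encodes titin, the giant elastic protein that sets sarcomere length. Its level was 623, 737 and 739 CPM across WT against 571, 557 and 547 CPM across 5C. The 5C libraries were nearly alike and all lay below the lowest WT library. Means were 699.6 ± 66.5 CPM for WT and 558 ± 12.1 CPM for 5C (SD, n = 3 each). The fitted level in 5C was 79.9% of that in WT, a log2 fold change of -0.32 ± 0.080 (SE), with an unadjusted p of 0.00252 in edgeR's quasi-likelihood test. *Ttn* alone took 23.1% to 28.6% of the counts of the 42 genes in a library.

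*Mybpc3* (ENSMUSG00000002100, chr2:91118144-91136516, plus strand), the cardiac form of myosin-binding protein C, measured 32.8, 49.6 and 49.6 CPM across WT against 38.4, 28.7 and 28.5 CPM across 5C. WT replicate 1 lay below 5C replicate 1, so the groups overlapped, with WT replicates 2 and 3 clearly the highest. Its log2 fold change was -0.45 ± 0.17 (SE) with an unadjusted p of 0.0282. *Myom1* (ENSMUSG00000024049, chr17:71002633-71126856, plus strand) encodes myomesin, which crosslinks thick filaments at the M-band, and measured 29.1, 34.4 and 35.7 CPM across WT against 25.4, 30.2 and 25.8 CPM across 5C. Here 5C replicate 2 lay above WT replicate 1, and the log2 fold change was -0.28 ± 0.11 (SE) with an unadjusted p of 0.0331.

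*Smyd1*, a methyltransferase of striated muscle that takes part in myosin assembly, measured 22.7, 33.8 and 22.2 CPM across WT against 21.3, 19.2 and 21.4 CPM across 5C. The groups did not overlap, but WT replicate 2 stood far above the other 2 WT libraries, which were close to the 5C values, and the unadjusted p was 0.0537. *Myl3*, the essential light chain of ventricular and slow muscle, measured 26.1, 44.6 and 32.2 CPM across WT against 29.1, 25.9 and 27.98 CPM across 5C. Again WT replicate 2 was highest and the groups overlapped, with a log2 fold change of -0.31 ± 0.17 (SE). The fast skeletal light chain *Myl1* was at 5.98, 6.95 and 7.66 CPM across WT against 6.54, 6.40 and 8.68 CPM across 5C, with a log2 fold change of 0.089 ± 0.18 (SE). A share of 26.1% of the 40-base windows of the *Myl1* exons also occurs in another gene (the pseudogene *Mylf-ps*), so its count is uncertain. *Myom2*, the M-protein of fast and adult muscle, was near the detection level at 0.997, 0.515 and 0.638 CPM across WT against 1.09, 0.939 and 0.783 CPM across 5C, and its log2 fold change of 0.30 ± 0.35 (SE) carried the largest size above 0 in the list.

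The 300 bases around the annotated start (250 before, 50 after) of *Ttn* and *Mybpc3* are shown because both hold a MEF2 box, the A/T-rich element bound by myocyte enhancer factor 2, marked in capitals. They are from the RefSeq promoters of GRCm38.p6, at chr2:76982498-76982797, minus strand (*Ttn*) and chr2:91117894-91118193, plus strand (*Mybpc3*).
Ttn: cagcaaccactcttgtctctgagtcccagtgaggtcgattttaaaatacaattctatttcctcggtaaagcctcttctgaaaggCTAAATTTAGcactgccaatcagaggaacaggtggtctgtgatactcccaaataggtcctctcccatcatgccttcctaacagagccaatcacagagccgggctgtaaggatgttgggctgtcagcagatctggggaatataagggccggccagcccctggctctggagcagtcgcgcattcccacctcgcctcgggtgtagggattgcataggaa
Mybpc3: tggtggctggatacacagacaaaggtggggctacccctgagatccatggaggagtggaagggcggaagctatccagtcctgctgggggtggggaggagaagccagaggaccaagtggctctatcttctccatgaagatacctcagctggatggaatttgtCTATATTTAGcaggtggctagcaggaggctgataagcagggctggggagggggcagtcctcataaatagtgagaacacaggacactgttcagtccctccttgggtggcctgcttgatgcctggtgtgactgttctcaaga

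The box began at position -166 relative to the *Ttn* start and at -90 relative to the *Mybpc3* start. Promoters were found for 36 of the 42 genes, 47 in all since some genes have several starts. On either strand a MEF2 box was present in 3 of the 47 (6.38%; the other was that of *Casq2*), beside 3.19% of 32851 promoters of the same length.

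The thin filament genes *Actc1* and *Tpm1* had the highest levels per length of the list, while the other thin filament genes lay lower. Thin filament genes differed little between genotypes: 7 of the 8 had a log2 fold change below 0, with a median of -0.12, and 1 of the 8 had an unadjusted p under 0.05. That gene, *Actc1* (ENSMUSG00000068614, chr2:114047282-114053548, minus strand), measured 191, 221 and 183 CPM across WT against 179.8, 162 and 174 CPM across 5C. All 3 5C libraries lay below all 3 WT libraries, but 5C replicate 1 and WT replicate 3 were separated by a narrow margin. Means were 199 ± 20.04 CPM for WT and 172 ± 9.16 CPM for 5C (SD, n = 3 each), and the log2 fold change was -0.21 ± 0.082 (SE) with an unadjusted p of 0.0303. *Acta1*, the skeletal alpha actin, measured 11.5, 8.59 and 13.2 CPM across WT against 9.33, 10.3 and 11.7 CPM across 5C, overlapping fully, with a log2 fold change of -0.073 ± 0.17 (SE). No 40-base window of the *Actc1* exons was shared with another gene, and 2.99% of those of *Acta1* were, in part with *Actb*.

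The troponin complex is made of the calcium sensor troponin C, the inhibitor troponin I and the tropomyosin-binding troponin T. *Tnnc1* measured 24.5, 34.3 and 28.2 CPM across WT against 22.8, 22.5 and 26.1 CPM across 5C, with WT replicate 2 highest, the groups overlapping and an unadjusted p of 0.0618. *Tnni1*, the slow troponin I that the embryonic heart also uses, measured 49.1, 58.9 and 44.4 CPM across WT against 45.9, 42.1 and 47.9 CPM across 5C. *Tnni3*, the cardiac troponin I, measured 10.3, 15.3 and 11.5 CPM across WT against 11.6, 9.48 and 13.8 CPM across 5C. Neither separated the genotypes, with log2 fold changes of -0.17 ± 0.11 (SE) for *Tnni1* and -0.080 ± 0.19 (SE) for *Tnni3*. Cardiac troponin T, *Tnnt2*, measured 41.9, 65.7 and 41.5 CPM across WT against 40.7, 44.1 and 47.7 CPM across 5C. Only WT replicate 2 stood above the rest, and without it the log2 fold change of *Tnnt2* moved from -0.18 to 0.082. The slow skeletal troponin T, *Tnnt1*, went the other way at 9.60, 8.33 and 7.02 CPM across WT against 9.15, 9.39 and 10.7 CPM across 5C, a log2 fold change of 0.21 ± 0.15 (SE) with overlapping groups. *Tnni1* (chr1:135779434-135810989) and *Tnnt2* (chr1:135836354-135852260) are neighbours on the plus strand, as are *Tnnt1* (chr7:4504570-4516382) and *Tnni3* (chr7:4518305-4524229) on the minus strand, and the log2 fold changes of the second pair differed in sign. *Tpm1* was at 369.6, 393 and 386 CPM across WT against 351, 368 and 417 CPM across 5C, with the highest and the lowest library both in 5C and a log2 fold change of -0.015 ± 0.077 (SE).

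The promoters of *Actc1*, *Acta1* and *Myom1* are shown because they hold a CArG box, the element bound by serum response factor, in capitals. Their positions in GRCm38.p6 (RefSeq) are chr2:114052826-114053125, minus strand (*Actc1*), chr8:123894726-123895025, minus strand (*Acta1*) and chr17:71019307-71019606, plus strand (*Myom1*).
Actc1: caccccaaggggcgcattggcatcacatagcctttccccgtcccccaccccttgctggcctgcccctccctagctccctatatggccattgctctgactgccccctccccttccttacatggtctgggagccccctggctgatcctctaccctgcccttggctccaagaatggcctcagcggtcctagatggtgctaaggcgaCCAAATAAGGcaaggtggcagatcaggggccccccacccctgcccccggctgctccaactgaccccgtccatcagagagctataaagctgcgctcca
Acta1: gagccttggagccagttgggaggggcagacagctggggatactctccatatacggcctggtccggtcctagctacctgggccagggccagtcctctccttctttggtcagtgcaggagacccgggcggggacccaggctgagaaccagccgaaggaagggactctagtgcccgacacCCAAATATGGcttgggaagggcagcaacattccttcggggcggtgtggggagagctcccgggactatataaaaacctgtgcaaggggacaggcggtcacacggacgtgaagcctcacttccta
Myom1: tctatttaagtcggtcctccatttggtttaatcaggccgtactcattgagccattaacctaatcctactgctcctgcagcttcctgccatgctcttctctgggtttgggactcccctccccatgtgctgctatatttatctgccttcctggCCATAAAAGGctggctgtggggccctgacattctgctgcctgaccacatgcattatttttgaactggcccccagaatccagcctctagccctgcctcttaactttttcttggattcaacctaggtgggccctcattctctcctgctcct

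Relative to the start, the box began at position -47 in *Actc1*, -73 in *Acta1* and -99 in *Myom1*. A CArG box was present in 7 of the 47 promoters (14.9%), from 6 genes, beside 1.63% of all 32851. The other genes were *Myl3*, *Nebl* and *Ldb3*. The *Ldb3* promoters overlap and hold the same box, which was counted in each. An M-CAT element (CATTCC, either strand), bound by TEAD factors, was in 23.4% of the 47 beside 14.7% of all, an E-box (CAGCTG) in 29.8% beside 16.3%, and TATAAA in 12.8% beside 13.6%. The E-box was found in 14 promoters from 12 genes, since overlapping promoters of *Tnni1* and of *Mb* hold the same site. The 6 genes with a CArG box had log2 fold changes from -0.42 (*Ldb3*) to -0.047 (*Nebl*), with -0.21 for *Actc1*, -0.073 for *Acta1*, -0.28 for *Myom1* and -0.31 for *Myl3*. These matches describe the promoters and were not tested against expression.

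Z-disc genes had a median log2 fold change of -0.065, and none of the 7 had an unadjusted p under 0.05. *Ldb3*, a PDZ and LIM domain protein that binds alpha actinin, measured 5.93, 5.58 and 8.14 CPM across WT against 4.85, 5.21 and 4.34 CPM across 5C. The groups did not overlap, but WT replicates 1 and 2 were close to the 5C libraries and WT replicate 3, the shallowest library, was highest, with an unadjusted p of 0.0506. *Csrp3*, the muscle LIM protein, measured 12.8, 20.1 and 13.4 CPM across WT against 13.1, 10.9 and 13.5 CPM across 5C. It showed the pattern of *Smyd1* and *Tnnt2*, with WT replicate 2 above all others and the remaining 5 libraries in a narrow band. *Actn2*, the alpha actinin that crosslinks thin filaments at the Z-disc, was the steadiest gene of this role at 14.6, 14.6 and 15.95 CPM across WT against 15.1, 14.4 and 13.5 CPM across 5C. *Nebl* (nebulette, a cardiac nebulin-like protein) measured 42.9, 46.5 and 38.0 CPM across WT against 39.1, 40.6 and 44.0 CPM across 5C, with a log2 fold change of -0.047 ± 0.094 (SE).

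*Nexn* (nexilin, an actin-binding Z-disc protein) measured 9.29, 6.95 and 6.06 CPM across WT against 6.24, 8.37 and 8.26 CPM across 5C, a log2 fold change of 0.0039 ± 0.20 (SE) whose sign differed between settings. *Tcap*, the titin cap, was low at 1.36, 1.63 and 0.798 CPM across WT against 0.727, 1.62 and 0.854 CPM across 5C, and its SE of 0.37 exceeded its log2 fold change of -0.36 in size. *Ankrd1*, a stress-responsive ankyrin repeat protein, was among the few genes with a higher mean in 5C, at 14.8, 20.3 and 15.0 CPM across WT against 19.1, 17.8 and 20.7 CPM across 5C. WT replicate 2 was close to the highest 5C library, and without it the log2 fold change of *Ankrd1* was 0.37, the only member to pass an unadjusted p of 0.05 as higher in 5C in any setting.

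The intermediate filament and adhesion scaffold genes had overlapping groups. *Des* (desmin) measured 26.2, 32.0 and 31.4 CPM across WT against 26.6, 18.95 and 28.6 CPM across 5C, with 5C replicate 2 the lowest by a wide margin and a log2 fold change of -0.26 ± 0.15 (SE). *Xirp1* (Xin, of the intercalated disc) measured 3.25, 4.12 and 3.83 CPM across WT against 3.39, 2.65 and 3.417 CPM across 5C. *Smpx*, a small muscle protein whose gene is X-linked, measured 5.51, 9.53 and 5.26 CPM across WT against 6.24, 5.98 and 8.40 CPM across 5C. Its highest values were in WT replicate 2 and 5C replicate 3, and its log2 fold change of 0.014 ± 0.25 (SE) had no steady sign between settings.

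Calcium handling genes differed by small amounts, with 7 of 8 log2 fold changes below 0, a median of -0.15 and 1 unadjusted p under 0.05. *Ryr2* (ENSMUSG00000021313, chr13:11553102-12106945, minus strand) encodes the ryanodine receptor through which cardiac sarcoplasmic reticulum releases calcium, and measured 31.0, 43.0 and 41.0 CPM across WT against 33.8, 28.1 and 30.6 CPM across 5C. WT replicates 2 and 3 were highest and WT replicate 1 lay within the 5C range, with a log2 fold change of -0.30 ± 0.13 (SE) and an unadjusted p of 0.0453. *Cacna1c*, the pore of the L-type calcium channel that triggers this release, measured 24.2, 20.3 and 25.05 CPM across WT against 21.8, 22.5 and 19.01 CPM across 5C. *Slc8a1*, the sodium-calcium exchanger that removes calcium from the cell, measured 126, 145 and 143 CPM across WT against 136, 132 and 121 CPM across 5C. These 2 surface proteins were within the replicate spread, with log2 fold changes of -0.13 ± 0.12 (SE) for *Cacna1c* and -0.090 ± 0.077 (SE) for *Slc8a1*.

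Reuptake is carried by *Atp2a2*, which measured 325, 284 and 318 CPM across WT against 285, 296 and 276 CPM across 5C. WT replicate 2, highest for many other members, was the lowest WT library here, and the log2 fold change was -0.11 ± 0.071 (SE). *Pln* (phospholamban), which restrains this pump, had a higher mean in 5C at 8.604, 12.4 and 10.53 CPM across WT against 10.3, 13.1 and 13.03 CPM across 5C, with overlapping groups and a log2 fold change of 0.21 ± 0.17 (SE). Exons of *Cep85l* or *Gm47644* on the opposite strand cover 64.7% of the *Pln* exons, and since the strand setting of the counting was not stated, the *Pln* count is uncertain.

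Calcium is stored in the reticulum by calsequestrins and tied to the ryanodine receptor by triadin. *Casq2*, the cardiac calsequestrin, measured 4.51, 3.26 and 4.47 CPM across WT against 2.48, 3.415 and 3.63 CPM across 5C. *Casq1*, the skeletal form, measured 7.08, 9.36 and 5.74 CPM across WT against 6.36, 5.46 and 6.41 CPM across 5C. *Trdn* (triadin) measured 3.04, 3.95 and 2.39 CPM across WT against 3.09, 2.56 and 2.85 CPM across 5C. All 3 overlapped between genotypes, with log2 fold changes of -0.37 ± 0.22 (SE) for *Casq2*, -0.30 ± 0.19 (SE) for *Casq1* and -0.16 ± 0.22 (SE) for *Trdn*.

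The 4 pacing and conduction genes all had log2 fold changes below 0, with a median of -0.25, and 2 of them were among the 7 genes with an unadjusted p under 0.05. *Popdc2* (ENSMUSG00000022803, chr16:38362209-38378216, plus strand), a cAMP-binding membrane protein of heart and muscle that takes part in pacemaking, measured 10.7, 13.3 and 9.89 CPM across WT against 7.57, 7.17 and 8.40 CPM across 5C. Each 5C library lay below each WT library, and the lowest WT library was above the highest 5C library by more than the whole 5C range. Means were 11.3 ± 1.79 CPM for WT and 7.72 ± 0.626 CPM for 5C (SD, n = 3 each), the fitted level in 5C was 68.0% of that in WT, and the log2 fold change of -0.56 ± 0.15 (SE) had an unadjusted p of 0.005.

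*Gja5* (ENSMUSG00000057123, chr3:96904693-97077416, plus strand) encodes connexin 40, the gap junction protein of atria, early trabeculae and arterial endothelium, so its RNA in a whole embryo is not only cardiac. It measured 23.1, 20.2 and 19.3 CPM across WT against 17.03, 16.6 and 14.2 CPM across 5C. The lowest WT library was above the highest 5C library. Means were 20.9 ± 1.98 CPM for WT and 15.9 ± 1.55 CPM for 5C (SD, n = 3 each), the fitted level in 5C was 76.1% of that in WT, and the log2 fold change of -0.39 ± 0.12 (SE) had an unadjusted p of 0.00828. Of the 40-base windows in its exons 21.5% were shared with *Zfp697*, and such reads may have been dropped. *Gja1* (connexin 43), which many embryonic tissues use, was at 256, 317 and 249.8 CPM across WT against 207, 256 and 302 CPM across 5C. Its spread within each genotype was wider than the difference between them. *Hcn4*, the channel of the pacemaker current, measured 6.14, 5.41 and 6.70 CPM across WT against 5.999, 5.98 and 5.55 CPM across 5C, with a log2 fold change of -0.049 ± 0.16 (SE).

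**Figure D3:**
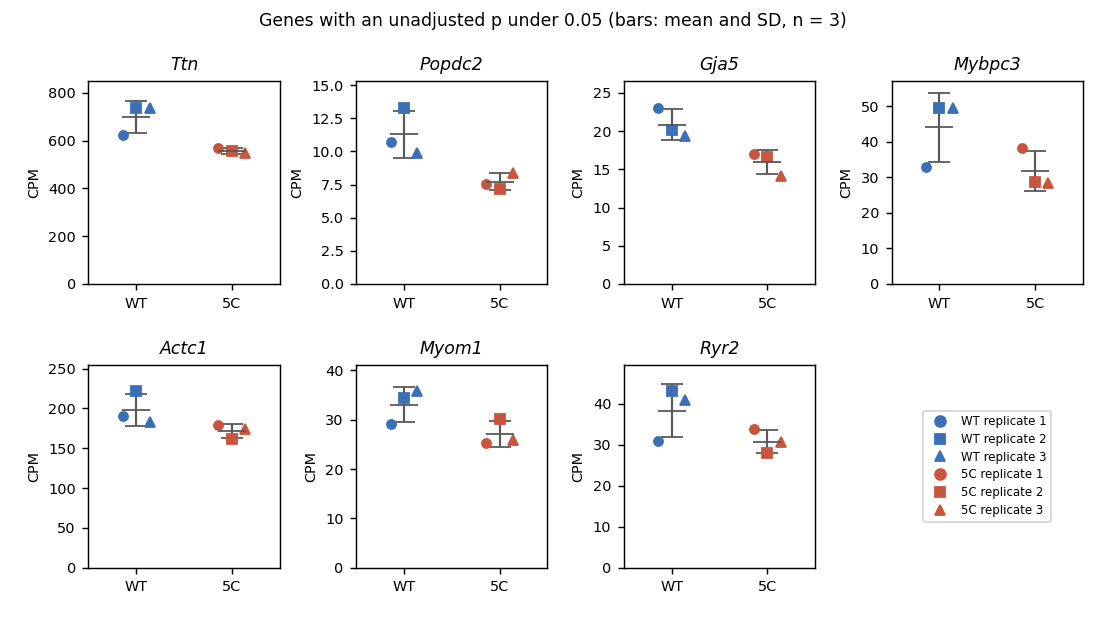
Level in CPM (y axes start at 0) of the 7 genes with an unadjusted p under 0.05, each point 1 library, the middle line of each group the mean of 3 libraries and the error bar the SD. Ttn, Popdc2, Gja5 and Actc1 have no overlap between WT and 5C, and Mybpc3, Myom1 and Ryr2 do because WT replicate 1 lies among the 5C libraries.

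Among the energy and stress genes, *Ckm*, *Ckmt2* and *Mb* were scarce at this stage. *Ckm*, the muscle creatine kinase, had 5, 2 and 1 counts in WT and 3, 4 and 8 counts in 5C, and *Ckmt2*, its mitochondrial partner, had 3, 2 and 0 counts in WT and 5, 1 and 3 counts in 5C. Neither passed the count filter, and no difference could be measured at this depth. *Mb* (myoglobin, the oxygen store) was little higher at 0.682, 1.12 and 0.160 CPM across WT against 0.970, 0.854 and 0.427 CPM across 5C, with an SE of 0.50 on its log2 fold change. Genes on the opposite strand cover 31.9% of the *Mb* exons, 19.6% of those of *Fabp3* and 15.5% of those of *Ckm*, so these counts carry the same doubt as that of *Pln*. *Fabp3*, the heart fatty acid-binding protein, measured 2.31, 1.72 and 0.638 CPM across WT against 2.06, 1.28 and 1.42 CPM across 5C, and 32.5% of its 40-base windows also occur in another gene, the pseudogene *Fabp3-ps1*. *Hspb7*, a small heat shock protein of heart and muscle, measured 3.46, 4.81 and 4.47 CPM across WT against 4.12, 4.18 and 4.27 CPM across 5C, and its log2 fold change of -0.0012 ± 0.19 (SE) was the closest to 0 of the list.

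The list holds 8 pairs of related genes in which one form is typical of skeletal or fetal muscle and the other of the heart, or which differ in tissue otherwise. Their log2 count ratio within a library does not depend on how libraries were scaled, so it asks whether the balance of forms differed between genotypes. With 3 libraries against 3, an exact permutation test cannot give a p under 0.10. None of the 8 ratios separated the genotypes. The slow over cardiac troponin I ratio, *Tnni1*/*Tnni3*, was 2.05 ± 0.18 (log2, SD) in WT and 1.97 ± 0.18 in 5C. The ratio of *Tnnt1* over *Tnnt2* was -2.12, -2.97 and -2.55 in WT and -2.15, -2.22 and -2.16 in 5C. Its 5C libraries were close to each other and lay inside the WT range. *Acta1*/*Actc1* was -4.17 ± 0.46 in WT and -4.04 ± 0.20 in 5C, so skeletal actin was a small part of both. *Casq1* counts exceeded *Casq2* counts in every library, with a log2 ratio of 0.84 ± 0.60 in WT and 0.94 ± 0.36 in 5C. The largest difference was that of *Myom2*/*Myom1*, -5.47 ± 0.58 in WT and -4.81 ± 0.27 in 5C, a difference of 0.66 that rests on few *Myom2* counts. *Myl1*/*Myl3* differed by 0.34 and *Gja5*/*Gja1* by -0.27. Exact permutation p-values were 0.3 to 1.0 (two-sided), and the adjusted values over the 8 pairs were 0.91 or above.

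**Figure D4:**
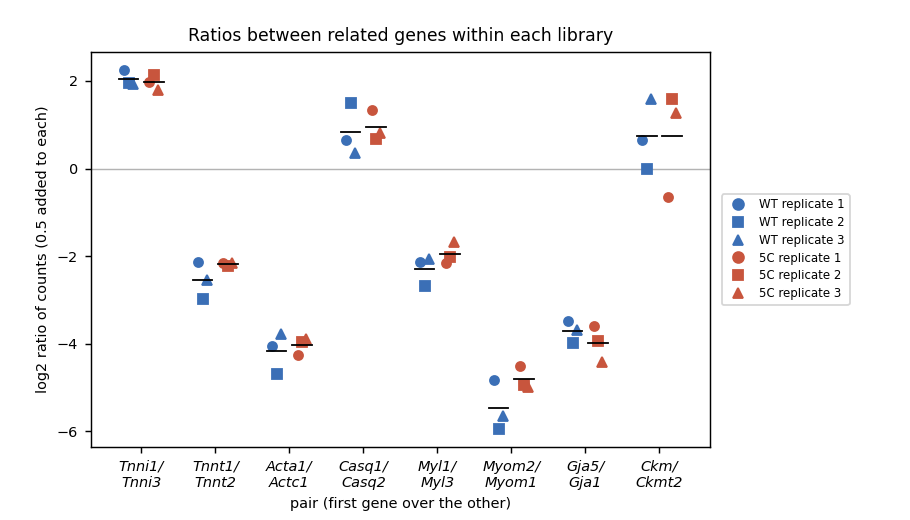
Log2 ratio of the counts of 2 related genes within each library (0.5 added to each count), WT in blue and 5C in red; each point is 1 library and each line a genotype mean. In all 8 pairs the points of the genotypes overlap, and the pairs with few counts (Ckm/Ckmt2) spread most.

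The members did not vary independently of each other over the libraries. WT replicate 2 was the highest library for 22 of the 40 tested genes, beside 17.7% of all genes tested, and its median deviation from the mean of the 6 libraries over the members was 0.22 on the log2 scale. The median deviation was -0.0036 in WT replicate 1, 0.050 in WT replicate 3, -0.062 in 5C replicate 1, -0.078 in 5C replicate 2 and -0.037 in 5C replicate 3. So the 3 5C libraries were alike, and WT replicates 1 and 3 were closer to them than to WT replicate 2. The lowest library was 5C replicate 2 for 12 of the 40 genes, beside 13.1% of all genes tested. It was 5C replicate 3 for 8 (20.9% of all genes), WT replicate 3 for 7 (19.2%) and 5C replicate 1 for 6 (12.2%). It was WT replicate 1 for 4 (18.6%) and WT replicate 2 for 3 (15.9%). WT replicate 2 and 5C replicate 2, the highest and the lowest by these counts, are the libraries with hardly any Y-linked RNA. A relation between the 2 was not tested. All 42 genes together took 0.241%, 0.274% and 0.254% of the counts in WT and 0.227%, 0.228% and 0.234% in 5C. These shares did not overlap, at 0.256% ± 0.0170 (SD, n = 3) and 0.230% ± 0.00398 (SD, n = 3). Without *Ttn* they did, at 0.179%, 0.201% and 0.182% in WT and 0.169%, 0.171% and 0.180% in 5C.

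**Figure D5:**
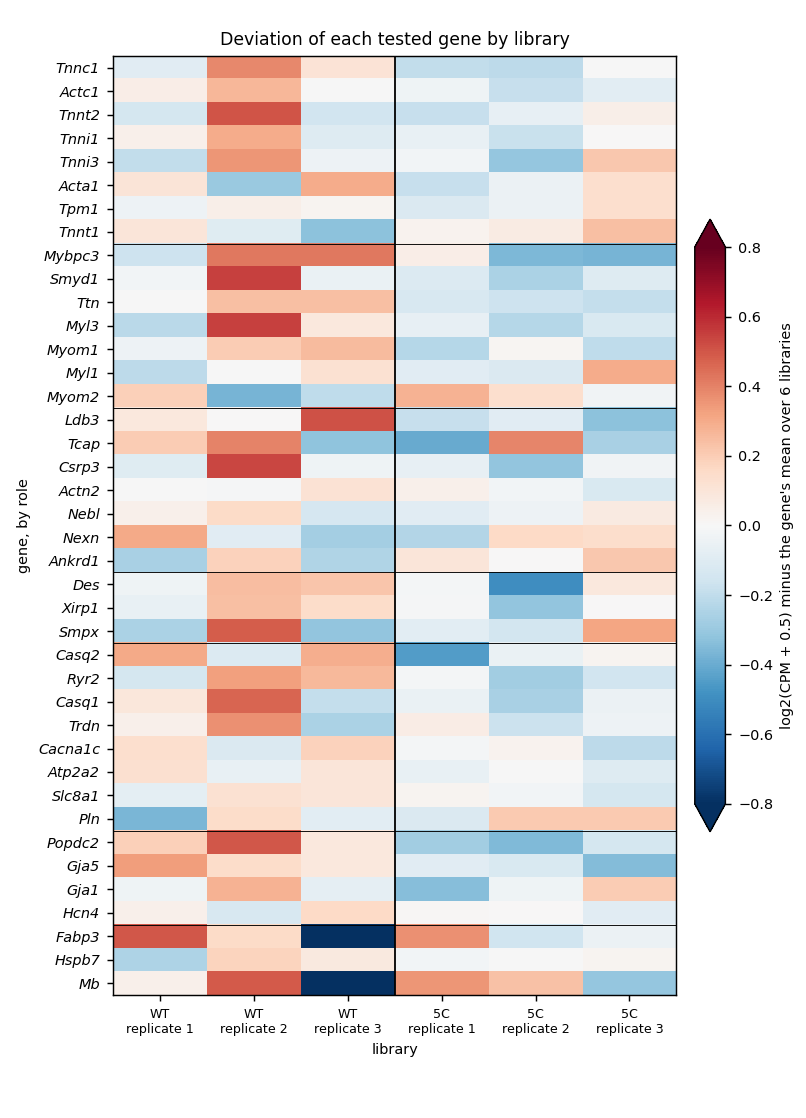
Deviation of each tested gene in each library from its mean over the 6 libraries (log2 of CPM plus 0.5), red above and blue below the mean, with genes grouped by role and a line between WT and 5C. WT replicate 2 is the highest library for 22 of the 40 genes, beside 17.7% of all genes tested.

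Markers of the tissues that hold these genes were measured beside them. Of 11 heart markers, 10 had a log2 fold change below 0, beside 50.7% of all genes tested, with a median of -0.17. At an unadjusted p under 0.05, 3 were lower in 5C (*Myh6*, *Myh7* and *Tbx20*), beside 3.47% of all genes. The summed level of the 11 was 429 to 555 CPM across WT libraries and 369.8 to 417 CPM across 5C libraries, and none of the 11 was at 0. *Myh6* and *Myh7*, the myosin heavy chains of the chambers, measured 61.1, 86.5 and 72.3 CPM and 79.7, 88.4 and 80.4 CPM across WT, against 48.9, 39.2 and 33.1 CPM and 52.3, 60.4 and 67.2 CPM across 5C. The 5 transcription factors of the list had log2 fold changes of -0.27 (*Tbx20*), -0.21 (*Gata4*), -0.073 (*Tbx5*), -0.057 (*Nkx2-5*) and 0.082 (*Hand2*). The count of heart markers at an unadjusted p under 0.05 was 5 without WT replicate 1 (2.61% of all genes lower). It was 6 without WT replicate 1 and 5C replicate 3 (2.69%). Of 10 markers of skeletal myoblasts, 9 were tested, none had an unadjusted p under 0.05, the median was 0.029, and their sum was 109.8 to 129.9 CPM across WT and 107 to 122 CPM across 5C. Without both libraries numbered 2, 2 of them were lower in 5C at an unadjusted p under 0.05 (3.98% of all genes). That count was 1 without WT replicate 2 (7.03%) or 5C replicate 2 (1.68%), and 1 was higher without WT replicate 1. All 7 smooth muscle markers lay below 0, beside 50.7% of all genes tested, with a median of -0.22. At an unadjusted p under 0.05, 2 were lower (*Acta2* and *Tagln*), beside 3.47% of all genes. The sum of the 7 was 165 to 179 CPM across WT and 136 to 142 CPM across 5C. Primitive erythroid markers (6 genes) summed to 9105 to 12459 CPM across WT and 8324 to 16211 CPM across 5C. Of the 6, 5 lay above 0 on the log2 scale (median 0.12) and none had an unadjusted p under 0.05. All 10 yolk sac endoderm markers lay below 0, with a median of -2.12 and 1 unadjusted p under 0.05, beside 3.47% of all genes lower. That count was 8 without WT replicate 2 (7.03% of all genes), 9 without 5C replicate 3 (2.88%) and 2 without WT replicate 3 (3.20%). It was 0 without any 1 of the other 3 libraries and 8 without WT replicate 1 and 5C replicate 3 (2.69%). It was 10 with no count filter (4.25%) and 0 with relative log expression scaling, DESeq2, limma-voom, the replicate block or the GC offset. Their sum was 6601, 210 and 477 CPM across WT and 147, 146 and 1282 CPM across 5C, so WT replicate 1 held most of it. All 4 decidual markers tested, of 5, lay above 0, with a median of 1.92 and 3 over 1.5-fold. At an unadjusted p under 0.05, 2 were higher (*Gzmg* and *Gzmc*), beside 2.55% of all genes. That count was 0 without WT replicate 1 or 5C replicate 3 and 4 without WT replicate 2 or 5C replicate 2. The decidual sum was 9.4 to 47.4 CPM across WT and 11.5 to 48.1 CPM across 5C. The part of these tissue levels in the values of the 42 genes was not tested.

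Further genes of the same pathways, 43 in number and not among the 42, were measured for comparison. Of the 38 that were tested, 18 (47.4%) had a log2 fold change below 0, beside 50.7% of all genes tested, with a median of 0.0073. At an unadjusted p under 0.05, 1 (2.63%) was lower, beside 3.47% of all genes, and 2 were higher, beside 2.55%. None had an adjusted p under 0.05 in edgeR's quasi-likelihood test with Benjamini-Hochberg adjustment. The count lower in 5C was 3 without WT replicate 1 (2.61% of all genes) and 2 without WT replicate 2 (7.03%) or 5C replicate 1 (4.40%). It was 0 without WT replicate 3, 5C replicate 2 or 5C replicate 3. The count higher was 1 without WT replicate 3 or 5C replicate 1, and 0 with DESeq2, with at least 10 counts in every library and without both libraries numbered 2. The 3 with the smallest p were *Tmod4*, *Myoz2* and *Synpo2l*. *Tmod4*, a tropomodulin that caps thin filaments in skeletal muscle, measured 0.472, 0.429 and 0.160 CPM across WT against 0.848, 0.768 and 0.925 CPM across 5C. *Myoz2*, a calsarcin of the Z-disc, measured 1.21, 0.687 and 0.798 CPM across WT against 2.0, 1.37 and 1.64 CPM across 5C. In both genes the lowest 5C library exceeded the highest WT library, at levels of few counts in WT. *Tmod4* in WT replicate 3 lay below the 3 counts taken as detected. Of the 38 genes, 3 had each 5C library above each WT library, beside 6.26% of all genes tested. In 2 of the 38 each 5C library lay below each WT library, beside 5.1%. *Synpo2l*, an actin-associated Z-disc protein, measured 4.83, 2.92 and 5.90 CPM across WT against 3.33, 2.65 and 2.49 CPM across 5C. Here WT replicate 2 was the lowest WT library and lay below 5C replicate 1, the reverse of its place among most of the 42 genes.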

How the data were processed

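The authors aligned 40-base single-end reads of poly(A)-selected, stranded libraries to GRCm38 with STAR and deposited whole-number counts per Ensembl gene, without normalization or filter. The strand column used was not stated. WT and 5C (3 libraries each, titles give genotype and number) were compared with edgeR 4.0.16 in R 4.3.3 (filterByExpr on genotype, TMM scaling, legacy quasi-likelihood F-test, two-sided, Benjamini-Hochberg over 16784 genes). The labels do not say that libraries came from separate litters, so p-values measure the spread between these libraries. A gene was called at an adjusted p under 0.05 if it also passed 1.5-fold. Ratios were tested by exact permutation. Exon lengths, positions and UTRs came from a GENCODE annotation of GRCm38, which held 55141 of the 55401 identifiers. Alternatives were other scalings, filters and tests (DESeq2 1.42.0, limma 3.58.1), a replicate block, a GC offset, removal of mitochondrial and globin genes and left-out libraries. The method was tested on simulated counts with 200 changed genes. At an adjusted p under 0.05 it recovered 98.5% of 4-fold and 78% of 2-fold changes. False calls made up 7.94% and 9.83% of the calls. Changes under 2-fold were not simulated. The changed genes were drawn only from those above a minimum mean CPM, and counts were drawn independently for each gene. Differences between libraries that many genes share, such as those of the yolk sac markers, were not simulated. These shares may therefore not hold for the real libraries, where *Mir483* (log2 fold change 3.05) had an adjusted p of 0.169 in edgeR's quasi-likelihood test. The members, lists and tests were chosen with earlier results of these data known. All 42 members are named by rule; *Mir483* was named as the edited gene, and the 3 further pathway genes as those with the smallest p.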

Additional observations from a re-analysis of the deposited data

How the results depend on the processing

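The count of genes with an adjusted p under 0.05 and over 1.5-fold was 0 in the main comparison and in all 19 alternatives, 2 of them added after the data were seen. The count of genes lower in 5C at an unadjusted p under 0.05, 7 as reported, was 11 with no count filter (4.25% of all genes), 4 with the replicate block (2.73%), 3 with the GC offset (2.41%), 3 with the GC offset and replicate block (1.66%) and 12 with WT replicate 1 and 5C replicate 3 left out (2.69%), and it ranged from 4 to 12 with single libraries left out. It was within 1.5 times of 7 in the other alternatives. The count of genes higher in 5C was 1 (*Ankrd1*) with both libraries numbered 2 left out, and 0 to 1 with single libraries left out. The median log2 fold change was -0.042 with both libraries numbered 2 left out and -0.24 with WT replicate 1 and 5C replicate 3 left out. Same-numbered libraries did not deviate together (correlations of deviations from the genotype means of -0.17, 0.20 and -0.17), so the numbers were not taken as pairs. The cause of these shifts was not tested.

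Of the 40 genes, 24 kept the sign of their log2 fold change in every alternative that gave one and 16 did not. *Myom2*, *Tcap*, *Mb* and *Fabp3* had 18 alternatives instead of 19, since the minimum of 10 counts removed them. The reported log2 fold changes of those 16 lay between -0.30 (*Csrp3*) and 0.089 (*Myl1*). The log2 fold changes with the opposite sign follow. With relative log expression scaling it was -0.0013 for *Nexn*. With scaling by library size alone it was 0.015 for *Hspb7* and 0.0012 for *Tpm1*. With no count filter it was 0.011 for *Hspb7*. With a minimum of 10 counts in every library it was 0.0012 for *Hspb7* and -0.011 for *Nexn*. With DESeq2 it was -0.0050 for *Nexn*. With limma-voom it was 0.044 for *Hspb7* and -0.052 for *Nexn*. With the replicate block it was 0.0028 for *Hspb7* and 0.011 for *Fabp3*. With the GC offset it was 0.070 for *Hspb7*, 0.0096 for *Acta1*, 0.026 for *Hcn4*, 0.020 for *Tpm1*, -0.079 for *Nexn*, -0.020 for *Smpx* and 0.0078 for *Actn2*. With the GC offset and replicate block together it was 0.076 for *Hspb7*, 0.082 for *Fabp3*, 0.023 for *Hcn4*, 0.017 for *Tpm1*, -0.054 for *Nexn* and 0.0077 for *Actn2*. With mitochondrial and globin genes removed it was -0.0028 for *Nexn*. With both libraries numbered 2 left out it was 0.11 for *Hspb7*, 0.091 for *Trdn*, 0.083 for *Tnnt2*, 0.036 for *Fabp3*, 0.022 for *Csrp3*, 0.026 for *Tpm1*, 0.23 for *Tnni3*, -0.12 for *Nexn*, 0.0097 for *Gja1* and 0.032 for *Nebl*. With WT replicate 1 and 5C replicate 3 left out it was 0.38 for *Fabp3*, 0.012 for *Hcn4*, -0.34 for *Smpx* and -0.16 for *Myl1*. With single libraries left out the log2 fold change ranged over -0.23 to 0.042 for *Acta1*, -0.35 to 0.32 for *Fabp3*, -0.25 to 0.026 for *Gja1*, -0.12 to 0.0047 for *Hcn4*, -0.15 to 0.12 for *Hspb7*, -0.21 to 0.51 for *Mb*, -0.068 to 0.16 for *Myl1*, -0.12 to 0.021 for *Nebl*, -0.11 to 0.21 for *Nexn*, -0.16 to 0.35 for *Smpx*, -0.22 to 0.11 for *Tnni3*, -0.30 to 0.082 for *Tnnt2*, -0.089 to 0.038 for *Tpm1*, -0.29 to 0.025 for *Trdn*. The difference in log2 ratio ranged over -0.12 to 0.33 for *Acta1*/*Actc1*, -0.13 to 0.44 for *Casq1*/*Casq2*, -0.43 to 0.69 for *Ckm*/*Ckmt2*, -0.16 to 0.029 for *Tnni1*/*Tnni3*. With 2 added to each count the *Ckm*/*Ckmt2* difference was 0.15, and with 0 added it was not computed, since a count was 0. In the shallowest library 3 counts corresponded to 0.472 CPM, which limits what can be said of *Mb*, *Ckm* and *Ckmt2*.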
